A study of Mus musculus with 14 samples.

Results

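The miR-29 family was represented on the array by mmu-miR-29a, mmu-miR-29b and mmu-miR-29c, chosen by these names alone, that is 3 of the 566 mouse miRNAs on the array and 3 of the 225 that were tested. The study measured miRNAs in the corpus callosum, the large white matter tract between the hemispheres, of male mice during toxic demyelination and repair, in order to find miRNAs that take part in the loss and the return of myelin. Control mice received normal chow (control, 4 arrays). The 4wd mice received 0.2 to 0.4% of the copper chelator cuprizone in chow for 4 weeks (4 arrays), the 2dr mice were returned to regular diet for 2 days after the same 4 weeks (4 arrays), and the 2wr mice for 2 weeks (2 arrays). Cuprizone feeding began at 7 to 8 weeks of age. The strain of these mice is not given in the sources used here, and each array held the RNA of 1 sample of callosal tissue. Cuprizone kills oligodendrocytes while microglia and astrocytes react, so these RNAs came from a mixture of cells that changes during the experiment. In such bulk tissue fewer cells of a type and less RNA per cell cannot be told apart.

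MicroRNAs are short RNAs that guide a silencing complex to mRNAs, mainly through the seed, the bases near the 5′ end of the miRNA. The miR-29 family is best known for lowering collagens and other extracellular matrix proteins and DNA methyltransferases, and in the brain it is known as an astrocyte-rich family that rises with maturation of the tissue and restrains proapoptotic genes in neurons. The mature sequences are shown here because the members differ by few bases and a probe must tell them apart. They are the RefSeq sequences (GRCm38.p6) of the 3p arms, to which 3 of 3 members matched, with the seed (bases 2 to 8) in capitals.
mmu-miR-29a: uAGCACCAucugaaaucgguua
mmu-miR-29b: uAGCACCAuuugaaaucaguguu
mmu-miR-29c: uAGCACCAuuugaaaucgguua
The seed was the same in all 3 members, and no other of the 1679 mature names in the RefSeq table held it at these positions. Counted from 1 at the 5′ end, miR-29a and miR-29c differed at 1 of 22 positions, C10U. miR-29a and miR-29b differed at 4 of 22 aligned positions, C10U, G18A, U21G and A22U, and miR-29b had 1 base more. miR-29b and miR-29c were identical over their first 17 bases and differed at A18G, G21U and U22A. In GRCm38.p6 Mir29a and Mir29b-1 lie next to each other on the minus strand of chromosome 6, and Mir29b-2 and Mir29c next to each other on the plus strand of chromosome 1, with 0 other annotated genes starting between the genes of either pair. The mature miR-29b of both genes is the same sequence, so its value is the sum over 2 loci.

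All 3 members were detected on 14 of 14 arrays. Each had 2 probes printed in 10 spots, which gave 20 spots per array, and 0 of the 840 spots of the family were saturated. Before scaling, the total gene signal of the array software ranged from 1921 to 6963 for miR-29a, from 654 to 4130 for miR-29b and from 476 to 2630 for miR-29c. The software's own error of this signal was 7.09 to 8.91% of it over the 3 members and 14 arrays. The values below are normalised log2 signals, the total gene signal divided by the 75th percentile of its array. Probes differ in brightness per molecule, so the levels of different members were not ranked against each other. The arrays lay on 2 slides, each scanned once. Slide 1 held 8 arrays (control 1 and 2, 4wd 1 and 2, 2dr 1, 2 and 4, 2wr 1) and slide 2 held 6 (control 3 and 4, 4wd 3 and 4, 2dr 3, 2wr 2).

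The 75th percentile signal was 379 to 849 on the control arrays and 217 to 344 on the 4wd arrays, with no overlap, and 209 to 655 and 306 to 619 on the 2dr and 2wr arrays. The part of this brightness in the results below was not tested except through the settings named beside them. Slide also mattered, since 69 of 225 miRNAs differed between slides with an adjusted p under 0.05 in limma with group in the model. Of the 91 pairs of arrays none shared an identical value among the 170 miRNAs detected on all arrays. Marker lists were read beside the tissue label, which they cannot settle because probes differ in brightness. The neuronal list was detected on all arrays for 5 of 5 members. Its summed normalised signal was 21.8 to 28.2 times the 75th percentile in control, and the share of grey matter in the tissue was not tested. The oligodendrocyte list (miR-219, miR-338-3p, miR-338-5p and miR-138) was detected on all arrays for 3 of 4 members, and its summed normalised signal was 2.81 to 11.2 times the 75th percentile in control, 1.98 to 3.54 in 4wd, 2.20 to 7.01 in 2dr and 3.76 to 3.97 in 2wr.

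miR-29a, from the chromosome 6 locus, read 3.47, 3.45, 3.04 and 2.91 on control arrays 1 to 4. It read 3.94, 4.23, 3.15 and 3.30 on the 4wd arrays. It read 3.79, 3.24, 3.41 and 3.29 on the 2dr arrays and 3.68 and 3.04 on the 2wr arrays. The brightest of the 14 arrays were 4wd 2 and 4wd 1, both on slide 1, and the ranges of all groups overlapped. The group means were 3.22 ± 0.29 in control (SD, n = 4), 3.65 ± 0.52 in 4wd (SD, n = 4), 3.43 ± 0.25 in 2dr (SD, n = 4) and 3.36 ± 0.45 in 2wr (SD, n = 2), and no neighbours in this order differed beyond their spread.

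miR-29b, the member made from both loci, had the widest control values, 2.72, 2.02, 1.41 and 2.23 on arrays 1 to 4. It read 2.49, 2.44, 2.57 and 2.12 on the 4wd arrays. It read 2.51, 1.65, 2.35 and 1.66 on the 2dr arrays and 2.00 and 1.67 on the 2wr arrays. The 4wd arrays lay inside the control range, and both 2wr arrays lay below all 4wd arrays. The means were 2.40 ± 0.20 in 4wd (SD, n = 4), 2.10 ± 0.54 in control (SD, n = 4), 2.04 ± 0.45 in 2dr (SD, n = 4) and 1.83 ± 0.23 in 2wr (SD, n = 2).

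miR-29c, the chromosome 1 member that differs from miR-29a by a single base, read 2.07, 1.64, 1.40 and 1.53 on the control arrays. It read 1.86, 2.16, 1.62 and 1.47 on the 4wd arrays. It read 1.97, 1.19, 1.77 and 1.61 on the 2dr arrays and 1.74 and 1.45 on the 2wr arrays. These values overlapped in every pair of groups, and the highest and the lowest of the 14 were both from mice that had received cuprizone (4wd 2 and 2dr 2). The means were 1.78 ± 0.30 in 4wd (SD, n = 4), 1.66 ± 0.29 in control (SD, n = 4), 1.63 ± 0.33 in 2dr (SD, n = 4) and 1.59 ± 0.21 in 2wr (SD, n = 2). For each of the 3 members the 4wd mean was the highest of the 4 group means, but the difference to the next mean was smaller than the larger SD of the 2 groups.

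**Figure D1:**
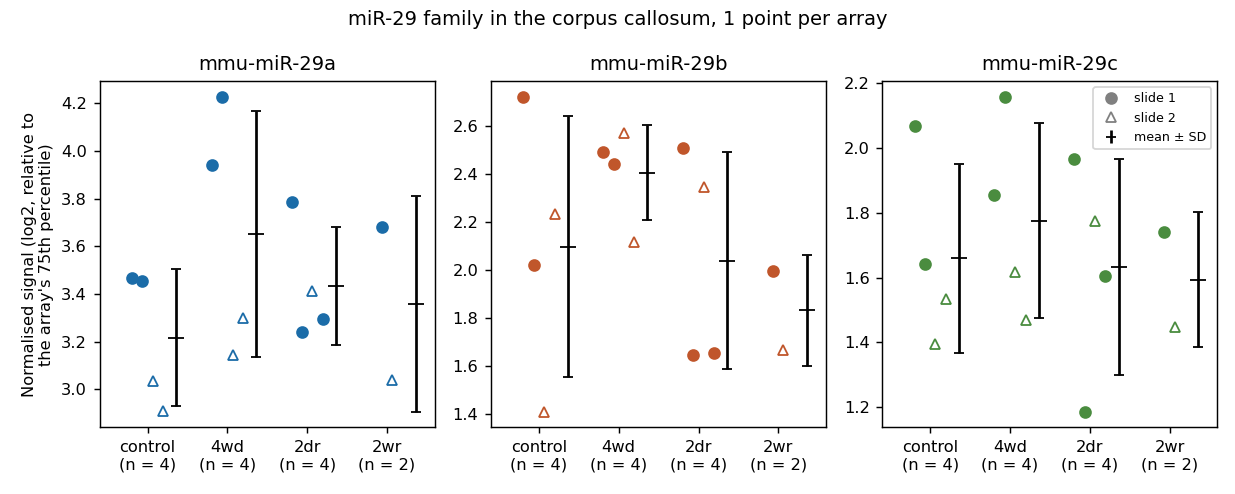
Normalised log2 signal (y axis, relative to the 75th percentile of the array, with a separate scale for each member) of miR-29a, miR-29b and miR-29c by group (x axis). Each point is 1 array, filled circles for slide 1 and open triangles for slide 2, and the bars give the mean ± SD; the groups overlap for all members except miR-29b in 2wr against 4wd, and for miR-29a the slide 2 arrays lie low in most groups.

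The comparison of 4wd with control asks which miRNAs differ at the height of demyelination. All 3 members had a mean above control, by 0.44 on the log2 scale for miR-29a, 0.31 for miR-29b and 0.12 for miR-29c, while the median over the 225 tested miRNAs was 0.03. None of the 3 members passed an adjusted p of 0.05 and a 2-fold change in limma, and 1 of 225 miRNAs (0.444%) did, miR-155, a call that was lost when control 1, 2 or 3, 4wd 1, 2 or 3 or 2dr 1, 2 or 3 was left out. For miR-29a the difference had a 95% interval of -0.16 to 1.03 and an adjusted p of 0.5525 in limma, with an exact two-sided permutation p of 0.2286 for 4 arrays against 4, where the smallest possible p is 0.0286. The interval for miR-29b was -0.32 to 0.94, with a limma adjusted p of 0.8016 and an exact permutation p of 0.3714. The interval for miR-29c was -0.39 to 0.62, with a limma adjusted p of 0.9605 and an exact permutation p of 0.5714. Single arrays weighed on these values: miR-29a was at 0.24 without 4wd 2 and 0.61 without 4wd 3, miR-29b at 0.0803 without control 3 and 0.52 without control 1, and miR-29c at -0.0179 without 4wd 2 and 0.25 without control 1. The upper bounds stayed below 2-fold (1 on the log2 scale) for miR-29b and miR-29c and just exceeded it for miR-29a. The direction depended on the processing. Without scaling between arrays the differences were -0.54, -0.67 and -0.86, beside a median of -0.93 over all tested miRNAs. The 3 members thus stayed above the median by 0.39, 0.27 and 0.07, against 0.41, 0.28 and 0.08 under the main setting. With normexp background correction, a change apart from scaling, the differences were -0.14, -0.21 and -0.32. All 3 were then below the median, which was 0.83.

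The slides held both groups in equal number, so the same difference can be read within each. On slide 1 both 4wd arrays were above both controls for miR-29a, by 0.62 on average, and on slide 2 again both were above both, by 0.25. Such a separation within both slides was seen in 30 of 225 miRNAs (13.3%). With slide as a block the difference of miR-29a remained 0.44, its 95% interval narrowed to 0.02 to 0.85 and its limma adjusted p was 0.26. miR-29b differed by 0.10 on slide 1 and 0.52 on slide 2, and miR-29c by 0.15 and 0.08, with overlap of the groups on both slides for both members.

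After 2 days of regular diet the limma interval of each member's difference from control contained 0. The intervals were -0.38 to 0.81 for miR-29a, -0.69 to 0.58 for miR-29b and -0.53 to 0.48 for miR-29c. They are too wide to show that the levels equalled those of control. The differences of 2dr from control were 0.22 for miR-29a (limma adjusted p = 0.6646), -0.06 for miR-29b (adjusted p = 0.931) and -0.03 for miR-29c (adjusted p = 0.9644) on the log2 scale, and the exact permutation p ran from 0.3143 to 0.8857. None of the 3 members was called, against 2 of 225 miRNAs (0.889%), miR-146a and miR-155, and 1 was called without control 2, 3 or 4. The median of all 225 was -0.25 in this comparison, so all 3 members stood above it. With the percentile over all mouse miRNAs, miR-29a, miR-29b and miR-29c were at 0.50, 0.22 and 0.26. With the authors' processed values they were at 0.48, 0.21 and 0.24. Without scaling all 3 members were below 0, with a median of -0.66 over all miRNAs, and with normexp correction miR-29b and miR-29c (-0.05 and -0.01) were below a median of 0.18. The slides disagreed, since on slide 1 miR-29b was lower in 2dr by 0.43 on average and on slide 2 the single 2dr array was higher than the controls by 0.52. For miR-29c the same values were -0.27 and 0.31, and for miR-29a -0.02 and 0.44. With slide as a block the differences were 0.09 for miR-29a, -0.10 for miR-29b and -0.09 for miR-29c.

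After 2 weeks of regular diet only 2 arrays were available, 1 on each slide. The differences of 2wr from control were 0.14 for miR-29a, -0.26 for miR-29b and -0.07 for miR-29c, each with a limma adjusted p of 0.9957. The 95% intervals were -0.59 to 0.87, -1.04 to 0.51 and -0.69 to 0.56. With 2 arrays against 4 an exact permutation test cannot go below 0.1333, and it gave 0.5333, 0.6667 and 1.0. The direction of miR-29a turned without scaling (-0.28), without 2wr 1 (-0.19) and with the replicate number as a block (-0.11). miR-29c was above 0 when the percentile was taken over all mouse miRNAs (0.11), with the authors' processed values (0.0763), quantile normalisation (0.0372) and without control 1 (0.0703) or 2wr 2 (0.0809), and miR-29b stayed below 0 in all 28 alternative settings. No miRNA of the 225 was called in limma here (0.0%), where 2 had an unadjusted limma p under 0.05 and the test named in the study's methods also called 0.

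The remyelinating groups were also compared with 4wd, whose arrays enter these differences and those against control alike. From 4wd to 2dr miR-29a differed by -0.22, miR-29b by -0.37 and miR-29c by -0.14, with limma adjusted p values of 0.6184, 0.4883 and 0.6874. The median over all 225 miRNAs was -0.30 in this comparison, so miR-29a and miR-29c stood above it and miR-29b below. From 4wd to 2wr the differences were -0.29, -0.57 and -0.18, with adjusted p values of 0.962, 0.9413 and 0.962, beside a median of -0.11. miR-29b in 2wr against 4wd was the widest difference of the family, 0.67 times the 4wd level, with a 95% interval of -1.35 to 0.20. Its exact permutation p was 0.1333, the smallest that 2 arrays against 4 allow. Both 2wr arrays were below all 4wd arrays for 21 of 225 miRNAs (9.33%), miR-29b among them. This fixes in advance that its 2wr array was lower within each slide, by 0.47 and 0.68. The within-slide differences were also below 0 for miR-29a (-0.41 and -0.18) and miR-29c (-0.27 and -0.10). From 2dr to 2wr the differences were -0.07, -0.21 and -0.04, each with a limma adjusted p of 1, beside a median of 0.12. None of the 3 members was called in these comparisons, nor was any other of the 225 miRNAs in limma (0.0% in each), with 41, 11 and 2 at an unadjusted limma p under 0.05 and 0 by the test of the methods. Without scaling the direction against 4wd turned for miR-29a and miR-29c in both groups and for miR-29b in 2dr, while miR-29b in 2wr stayed below 4wd in all 28 alternative settings, at -0.02 to -0.73.

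**Figure D2:**
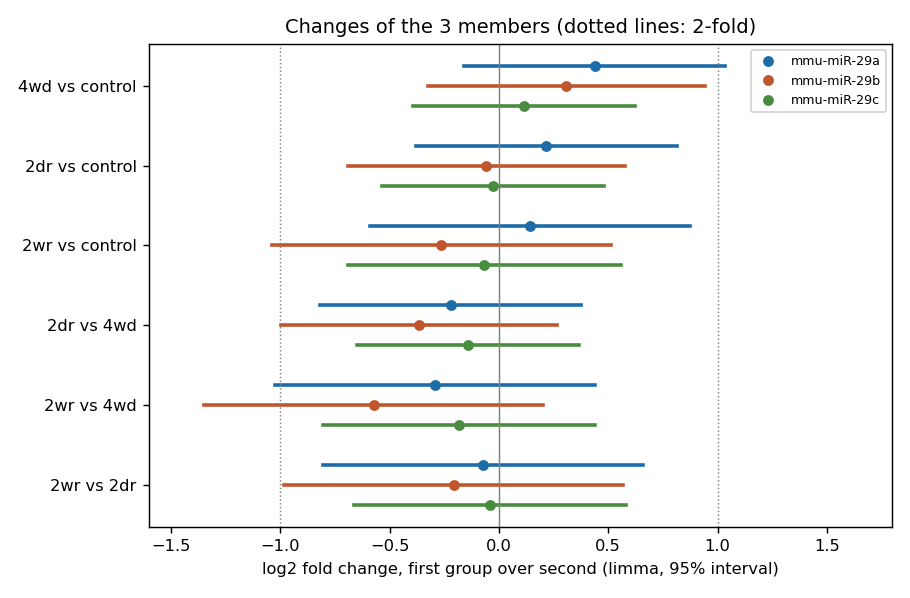
Fitted log2 fold change (x axis, first group over second, limma, dot) with its 95% interval (line) of the 3 members in the 6 comparisons (y axis), with dotted lines at a 2-fold change. Every interval contains 0, and none lies wholly beyond 2-fold.

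Ranked among the 225 tested miRNAs, the fold change of miR-29a in 4wd against control exceeded that of 85.3% of them, miR-29b that of 76% and miR-29c that of 57.3%. In 2dr against control the shares were 81.8, 65.3 and 69.3%. In 2wr against control miR-29a exceeded 78.2%, but miR-29b only 30.7% and miR-29c 52%. The members were thus inside the bulk of the array at all stages. The let-7 family, regulators of differentiation and timing, had 9 of 9 members above 0 in 4wd against control (median 0.43) and in 2dr against control (median 0.26), with 0 called. All of them turned below 0 without scaling, and with normexp correction 2 of 9 stayed above 0 in 4wd. The miR-30 family had 1 of 5 members above 0 in 4wd (median -0.21) and 0 of 5 in 2dr (median -0.54), also with 0 called, although with normexp correction 4 of 5 were above 0 in 4wd. The miR-29 medians were 0.31 and -0.03 in the same comparisons. The difference between families was not tested.

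**Figure D3:**
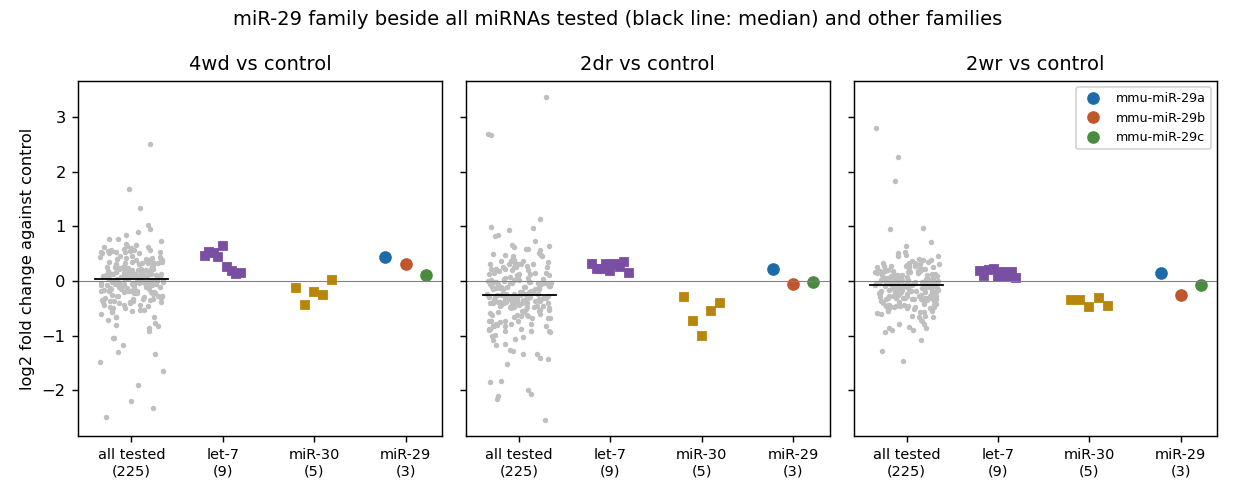
Log2 fold change against control (y axis) at 4wd, 2dr and 2wr for all 225 tested miRNAs (grey points, black line at the median), the 9 let-7 members, the 5 miR-30 members and the 3 miR-29 members. The miR-29 members lie between -0.26 and 0.44, within the cloud of all miRNAs; without scaling between arrays all 3 lie below 0 in 4wd.

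Each member was measured by 2 probes, whose sequences are not in the files used here. For miR-29a the first and second probe gave a 4wd difference from control of 0.47 and 0.42. For miR-29b they gave 0.26 and 0.31, and for miR-29c 0.10 and 0.13. In 2dr the probes of miR-29b parted, with -0.33 from the first and 0.00 from the second. Of the 2dr arrays 3 of 4 were on slide 1, against 2 of 4 controls, and these probes differed between slides as given below. The part of the slides in this gap was not tested. Over the 14 arrays the 2 probes of miR-29a correlated at r = 0.97 and those of miR-29c at r = 0.93, but those of miR-29b at only r = 0.50. These correlations share the arrays and their scaling and are given as a description.

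The low correlation between the miR-29b probes went with the slides. Its first probe carried 11.8 to 14.3% of the miR-29b signal on the 8 arrays of slide 1 and 21.1 to 23.9% on the 6 arrays of slide 2, with no overlap. Within slide 1 the probes correlated at r = 0.97 (n = 8) and within slide 2 at r = 0.98 (n = 6). From slide 1 to slide 2 the mean of the first probe was higher by 0.64 on the log2 scale and that of the second was lower by 0.29. The probe shares of miR-29a were also apart, at 26.9 to 29.3% on slide 1 and 29.4 to 30.9% on slide 2, whereas those of miR-29c overlapped, at 41.8 to 48.7% and 45.8 to 46.9%. This was common on the array, since the share of the first probe did not overlap between slides for 113 of the 153 miRNAs with 2 probes and detection on all arrays (73.9%). For the summed signal with group in the model, slide 2 was lower than slide 1 by 0.52 on the log2 scale for miR-29a (limma adjusted p = 0.021), by 0.16 for miR-29b (adjusted p = 0.635) and by 0.27 for miR-29c (adjusted p = 0.231).

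**Figure D4:**
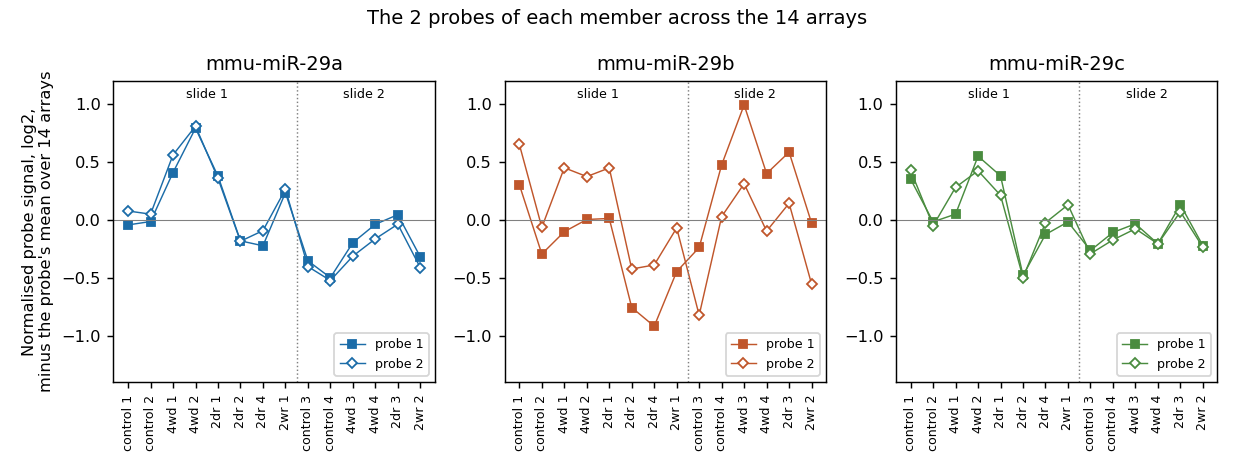
Normalised signal of the first (filled squares) and second probe (open diamonds) of each member, as log2 minus the mean of that probe over the 14 arrays (y axis), on each array (x axis, slide 1 left of the dotted line and slide 2 right). Lines only join the points of a probe; the probes of miR-29a and miR-29c run together, and those of miR-29b cross between the slides, where the first probe carries 11.8 to 14.3% and 21.1 to 23.9% of the signal.

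The members varied together in part. Over the 14 arrays miR-29a and miR-29c had r = 0.78 (Spearman's rho = 0.84), miR-29b and miR-29c r = 0.77 (rho = 0.77) and miR-29a and miR-29b r = 0.50 (rho = 0.49). With the group means removed the same r were 0.81, 0.76 and 0.44, and with the slide means removed 0.72, 0.79 and 0.54. The arrays of these correlations share slides and a common scaling, and how well the probes tell the members apart was not tested. Within an array the log2 difference of miR-29c from miR-29a spanned 0.71 over the 14 arrays and that of miR-29b from miR-29a spanned 1.21. The mean of miR-29c minus miR-29a differed from control by -0.32 in 4wd, -0.24 in 2dr and -0.21 in 2wr. This does not depend on the factor by which an array is divided, but it does depend on other processing. In 4wd against control miR-29a and miR-29c were at -0.14 and -0.32 with normexp correction, and at 0.24 and 0.05 with quantile normalisation. Array values of miR-29c minus miR-29a overlapped, at -1.81 to -1.37 in control and -2.09 to -1.53 in 4wd. The spread (SD, n = 4) of this difference was 0.21 in control and 0.26 in 4wd.

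The star strands, the less abundant arms of the hairpins, were on the array under their own names. miR-29a* was detected on 1 control, 0 4wd, 1 2dr and 1 2wr array and was not tested. miR-29b*, which the array name ties to neither of its loci, was detected on 14 of 14 arrays. It read -5.83, -6.08, -6.94 and -6.09 in control and -5.28, -5.00, -5.87 and -5.43 in 4wd. Of the 4wd arrays 3 of 4 were above all controls, and within each slide both 4wd arrays were above both controls, as for 30 of 225 miRNAs (13.3%). The 4wd difference was 0.84 with a 95% interval of 0.18 to 1.495, a limma adjusted p of 0.4016 and an exact permutation p of 0.0571. Its total gene signal was between 3.09 and 12.4 units, with a software error of 15.8 to 48.6% of it. Under normexp correction the 4wd difference was 1.31 (limma adjusted p = 0.03684), where 82 of 225 miRNAs (36.4%) were called and the median of all was 0.83. Without scaling the difference was -0.14. miR-29c* was detected on 14 of 14 arrays and differed from control by 0.11 in 4wd (adjusted p = 0.9605), -0.09 in 2dr (adjusted p = 0.8458) and -0.10 in 2wr (adjusted p = 0.9957). It correlated with miR-29c, the other arm of the same hairpin, at r = 0.80 over the 14 arrays, and miR-29b* with miR-29b at r = 0.59. By r to the mean of the 3 members, with the slide means removed, miR-29c* ranked 36 and miR-29b* 41 among 222 miRNAs.

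Among the other 222 tested miRNAs, those whose values ran most like the mean of the 3 members over the 14 arrays were miR-495 (r = 0.83), miR-380-3p (r = 0.81), miR-410 (r = 0.81), miR-376b* (r = 0.80) and miR-218 (r = 0.80). The median r over the 222 was 0.21. With the slide means removed the order changed to miR-323-3p, miR-488, miR-376b*, miR-434-3p and miR-496, at r = 0.86 for each, and miR-376b* was in both sets. The least alike were miR-320 (r = -0.62), miR-375 (r = -0.59) and miR-140* (r = -0.58), and with the slide means removed miR-500 (r = -0.73), miR-30c-1* (r = -0.64) and miR-93 (r = -0.64). All of these share the arrays, the slides and the scaling.

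Other miRNAs linked to extracellular matrix and fibrosis were tested for 5 of 10 listed names. In 4wd against control 0 of these 5 were called, 3 were above 0 and their median was 0.04, near the 0.03 of all tested miRNAs. miR-21, a profibrotic and injury-induced miRNA, differed from control by 0.41 in 4wd (limma adjusted p = 0.7714) and 0.99 in 2dr (adjusted p = 0.3676). miR-192 differed by -0.10 and -0.02 and miR-30c by -0.21 and -1.003, none past the test. The largest differences of the list, named after their values were seen, were those of miR-34a, at 1.02 in 4wd (limma adjusted p = 0.4016) and 1.13 in 2dr (adjusted p = 0.2008), and of miR-133b, at 0.04 in 4wd and -1.07 in 2dr (adjusted p = 0.3676). miR-133b was detected on 3 of 4 2dr arrays and was tested through the control and 4wd arrays. In 2dr against control 0 of 5 were called and the median was -0.02.

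Lists for the cells the tissue may hold moved as follows beside the family. Other astrocyte-enriched miRNAs had 0 of 5 called in 4wd against control, with a median of -0.36 where the miR-29 median was 0.31. Of this list miR-26a differed by -0.36, miR-24 by 0.09, miR-27a by 0.24 and miR-27b by -0.54 in 4wd. Their summed normalised signal was 10.8 to 13.7 in control and 8.61 to 13.97 in 4wd. The oligodendrocyte list had 0 of 4 called and a median of -1.001 in 4wd, with miR-219 at -0.83, miR-338-3p at -1.17 and miR-138 at 0.31. The remaining member, miR-338-5p, was detected on 4 of 4 control and 2 of 4 4wd arrays, so that its fitted difference of -2.49 depends on the floor set for undetected values. It was tested only because all control arrays detected it, so its difference comes from the group that admitted it. That value also enters the median of the list. The neuronal list had 0 of 5 called and a median of 0.06, and its sum was 21.8 to 28.2 in control and 12.6 to 39.5 in 4wd. In the myeloid list 3 of 4 members were tested and 1, miR-155, was called in 4wd (limma adjusted p = 0.03848) and in 2dr (adjusted p = 0.002224). miR-155 was detected on 0 of 4 control, 1 of 4 4wd and 4 of 4 2dr arrays. It was tested only because all 2dr arrays detected it, so its call and fold in 2dr come from the group that admitted it. Under the main scaling its level in 2dr was at least 9.76-fold that in control. This bound takes each control array at its own value, its lowest detected signal or the floor, whichever is highest. With normexp correction the 2dr difference was 0.56 on the log2 scale (limma adjusted p = 0.9628). Without scaling it was 3.08 (limma adjusted p = 0.05167). The mean of miR-155 in 4wd rests on 1 detected array. miR-142-3p differed from control by 1.69 in 4wd (adjusted p = 0.428) and miR-223 by -0.91 (adjusted p = 0.5525), with miR-142-3p detected on 2 of 4 controls and miR-223 on 0 of 4 4wd arrays. miR-142-3p was tested through the 4wd and 2dr arrays and miR-223 only through the controls, so these differences too come from the admitting groups. The sum of the myeloid list was 0.03 to 0.06 in control and 0.06 to 0.09 in 4wd. Of the red cell list miR-144 was detected on no array, and miR-451 differed by -0.45 in 4wd (adjusted p = 0.6166). Of the endothelial and mural list only miR-126-3p was tested and differed by -0.03. The part of the cell mixture in the values of the miR-29 members was not tested.

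**Figure D5:**
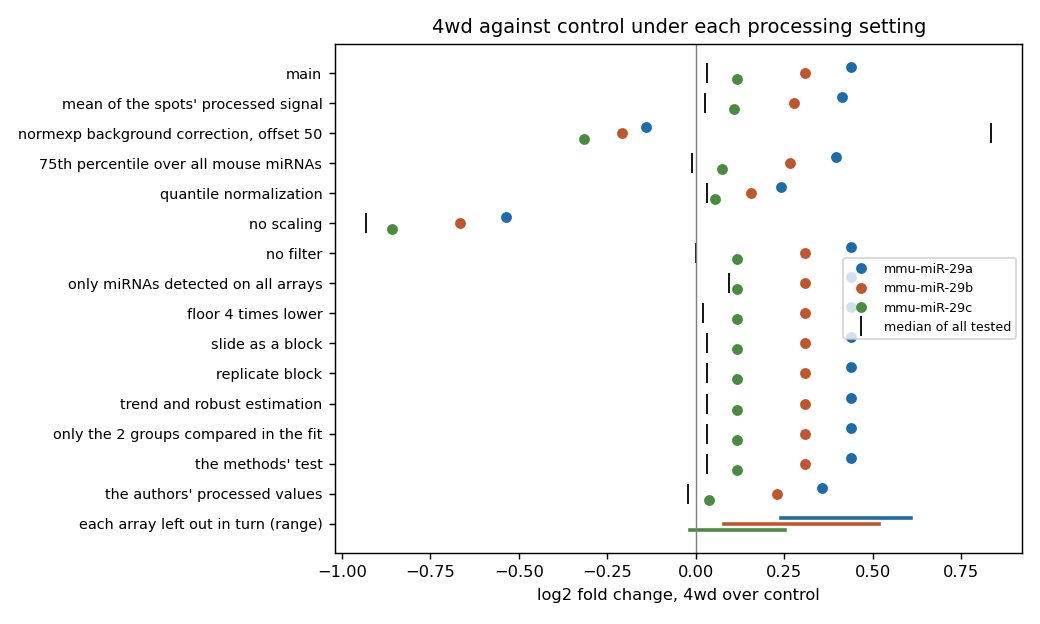
Log2 fold change of the 3 members in 4wd against control (x axis) under each processing setting (y axis; bars in the last line give the range when each array is left out in turn), with a black tick at the median of all miRNAs tested. The members are above 0 under the main setting, at 0.44, 0.31 and 0.12, and below 0 with normexp correction and without scaling, where the median of all moves to 0.83 and -0.93; without 4wd array 2 miR-29c is at -0.02.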

How the data were processed

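Total RNA of the corpus callosum was hybridised in a single colour (Cy3) to 14 Agilent mouse miRNA arrays, 1 array per sample. Per the file headers the deposited intensity values came from Agilent Feature Extraction 10.5.1.1, with an array design on build mm9, and the deposited series table holds the authors' processed log2 values. That table equalled log2 of the total gene signal, with values below 1 set to 1, minus a constant of each array within 0.01 for 559 to 560 of 560 miRNAs on 13 arrays and for 368 of 560 on 4wd array 1. The authors' methods name the 75th percentile as the centre, and the table was used as an alternative only.

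Here the total gene signal of each miRNA was divided by the array's 75th percentile of the 170 miRNAs that every array detected. Scaled values below 0.00176 were raised to that floor (log2 -9.15) before log2. A miRNA was tested if all arrays of any group detected it, which held for 225 of 566 (10 viral miRNAs were left out). One limma fit (limma 3.58.1, R 4.3.3) covered the 4 groups, with Benjamini-Hochberg adjusted p below 0.05 and at least 2-fold as the call; its intervals are 95% intervals. Exact permutation tests used scipy, within Python. The procedure was tested on simulated data without a slide effect, so that test does not cover the slide differences seen here. The number of arrays limits the precision, and the p-values weigh each difference against the spread between these samples. Alternatives covered spot summary, background correction (normexp with offset 50, on the median spot signal because the mean was not among the columns), scaling, filter, floor, slide, replicate number, variance model, the methods' test, the series table and each array left out in turn. Named were the members, their star strands, up to 4 members per list in written order, and the 5 most and 3 least alike miRNAs by Pearson r. The members and the lists were chosen with earlier results of these data known.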

Additional observations from a re-analysis of the deposited data

How the results depend on the processing

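No member passed the test under any of the settings tried: of 504 refits of a member's change, 0 passed the threshold. In 216 of them the fold change equalled the reported one, as where only the test, the filter or an array of another group changed, and of the other 288 refits 236 kept the direction and 52 turned it. The arrays' number and the gap in brightness between control and 4wd limit what can be read, and the cause of each turn was not tested.

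Without scaling between arrays, miR-29a, miR-29b and miR-29c differed by -0.54, -0.67 and -0.86 in 4wd against control, miR-29a by -0.19 in 2dr and -0.28 in 2wr against control, the 3 members by 0.35, 0.21 and 0.43 in 2dr against 4wd, and miR-29a and miR-29c by 0.26 and 0.37 in 2wr against 4wd. With normexp correction the values were -0.14, -0.21 and -0.32 in 4wd against control, 0.34, 0.16 and 0.31 in 2dr against 4wd, and 0.18 (miR-29a) and 0.23 (miR-29c) in 2wr against 4wd. With the percentile over all mouse miRNAs, miR-29b and miR-29c were at 0.22 and 0.26 in 2dr and miR-29c at 0.11 in 2wr against control, miR-29a and miR-29c at 0.10 and 0.18 in 2dr and miR-29c at 0.0344 in 2wr against 4wd. With the authors' processed values the same 6 were 0.21, 0.24, 0.0763, 0.12, 0.20 and 0.0406. With quantile normalisation miR-29c was at 0.0036 in 2dr and 0.0372 in 2wr against control and at 0.0336 in 2wr against 2dr. With slide as a block miR-29a and miR-29c were at 0.0564 and 0.0261 in 2wr against 2dr.

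For 4wd against control, the count of miRNAs called was 82 with normexp and 0 with the mean of the spots' signal, no scaling, every mouse miRNA tested, a test limited to miRNAs that all arrays detected, a lower floor, trend and robust estimation, or the test of the methods, against 1. For 2dr against control it was 0 with normexp, no scaling or the test of the methods, and 1 with either of these filters, against 2. For 2wr against control it was 1 with the percentile over all miRNAs, quantile normalisation, slide as a block or the authors' values, against 0.

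Leaving out each array in turn gave counts of 0 to 1 (4wd), 1 to 2 (2dr) and 0 to 1 (2wr) against control, and 0 to 1 in 2wr against 4wd and in 2wr against 2dr. In 2wr against control miR-29a ranged from -0.19 to 0.46 (below 0 without 2wr 1) and miR-29c from -0.22 to 0.0809 (above 0 without control 1 or 2wr 2). In 2wr against 4wd miR-29a ranged from -0.61 to 0.0262 (above 0 without 2wr 2). In 2wr against 2dr miR-29a ranged from -0.41 to 0.25 (above 0 without 2dr 1 or 2wr 2) and miR-29c from -0.30 to 0.11 (above 0 without 2dr 1, 2dr 3 or 2wr 2). In 2dr against control miR-29b ranged from -0.29 to 0.15 (above 0 without control 1, 2dr 2 or 2dr 4) and miR-29c from -0.14 to 0.16 (above 0 without control 1 or 2dr 2). In 4wd against control miR-29a ranged from 0.24 to 0.61, miR-29b from 0.0803 to 0.52 and miR-29c from -0.0179 to 0.25 (below 0 without 4wd 2), and in 2dr against 4wd miR-29c ranged from -0.25 to 0.0349 (above 0 without 2dr 2). Where 1 array of 2wr remained, its spread was taken from the other groups.

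Whether the replicate numbers pair the samples was not tested apart from the slides, and the main fit did not pair them. Of 18 pairs of same-numbered arrays 13 deviated together (correlation above 0.1, lowest of the 18 -0.614). These were the same 13 pairs that shared a slide. Among the arrays, 8 of 14 correlated best with an array of their own number. With the replicate number as a block, miR-29a was at -0.11 in 2wr against control and no other member turned.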
